A study of Phaseolus vulgaris with 21 samples.

Results

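Aquaporins and proton pumps were followed across the nectaries and leaf of common bean (Phaseolus vulgaris) by RNA sequencing. The set holds 22 of the 6359 transcripts in the deposited table. Of these, 21 were chosen because the description of their first Arabidopsis match names an intrinsic protein, an aquaporin, a vacuolar or V-type ATPase or an H+-ATPase, and 1, the plasma membrane pump LOC100805218, was added by its symbol. The rule reads descriptions and that symbol and no measured value, but it was set with earlier results of these data known. The set comprises 14 aquaporins and 8 proton pump transcripts: 6 plasma membrane intrinsic proteins (PIP), 4 tonoplast intrinsic proteins (TIP), 4 nodulin 26-like or small basic intrinsic proteins (NIP and SIP), 1 P-type plasma membrane H+-ATPase, 5 subunits of the vacuolar ATPase and 2 factors matched to its assembly.

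Aquaporins are channels that let water, and in some cases boric acid, glycerol or other small solutes, cross a membrane down its gradient. Proton pumps spend ATP to build a proton gradient, across the plasma membrane by the P-type ATPase and across the vacuole and other internal membranes by the V-type ATPase, and that gradient drives sugar and ion transport. Nectar is a watery sugar secretion, so channels for water and pumps that energize sugar transport are both of interest in a nectary.

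All plants were of the cultivar Blue Lake 274, and the labels name no mutation, transgene or treatment. The groups, with 3 libraries each, were floral nectaries (FN) at 4 stages, extrafloral nectaries (EFN) from 2 sites, and leaf. The floral stages were pre1, which precedes anthesis by 24 h, pre2, which precedes it by 12 h, secretory, taken from open flowers 3 h into the day, and post, a further 12 h on. The stem EFN were taken on the stem at the base of lateral trifoliate leaves, and the leaf EFN at the base of terminal trifoliate leaves. All nectary pieces were dissected by hand, plant age is not given, and the labels do not say whether the 3 libraries of a group came from separate plants, so p-values measure the spread between these libraries, which may be technical. With the secretory stage taken as anthesis, successive floral stages are 12 h apart, so stage and time of day cannot be told apart between them. Pre1 and the secretory stage are then 24 h apart. No clock hour is stated for pre1, pre2, EFN or leaf, so time of day may differ in comparisons with EFN and leaf too. Whether the EFN were secreting when taken is not given in the labels used here.

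The values are normalized read counts, not raw counts, and were made on soybean transcripts, so each name below is that of a soybean transcript and its symbol. Transcript lengths were not used, so levels are compared for one transcript between tissues and not between transcripts. Close copies may share reads, and 4 of the 22 transcripts carry several Arabidopsis matches. Library sums ran from 2616502 to 4270943, and 1 read was worth 0.794 to 1.322 units. Secretory library 1 had 0 transcripts at 0, whereas the other libraries had 5 to 308, the most in leaf. Whether the table was limited to transcripts found in that library is not given in the sources used here, and its part in the shares of all transcripts called was not tested. A set of 5 floral nectary markers summed to between 8811 and 69117 in every floral library, against 73 to 283 in the EFN libraries and 12 to 53 in leaf. The marker matched to CRABS CLAW, LOC100500026, was at 0 in every EFN and leaf library. A set of 5 leaf photosynthesis markers summed to between 122 and 401 in floral nectaries, 35375 to 42322 in stem EFN, 9717 to 31188 in leaf EFN and 59404 to 176444 in leaf. Of 5 listed phloem markers only 1 was found, LOC100810962, described as a bidirectional sugar transporter SWEET14-like and matched to SWEET12. It had 98 to 799 units in floral nectaries, 69 to 371 in EFN and 0 in leaf, and phloem content cannot be read from this transcript alone. The part of these cell types in the results was not tested. In tissue samples of this kind, fewer cells of a type and less RNA per cell cannot be told apart.

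Against leaf, the aquaporins divided between the nectary types, while the called pump transcripts were all higher than leaf, except that the assembly factor LOC100527876, not called in the deposited scaling, was called lower in floral nectaries when libraries were rescaled by median ratios (adjusted p = 0.042) or to equal upper quartiles (adjusted p = 0.0145). Differences were tested with limma on log2(value + 1) over all 6351 transcripts with a mean of at least 1, which included all 22, and a transcript was called at a Benjamini-Hochberg adjusted p under 0.05. In floral nectaries against leaf, 11 of the 22 were called higher, where 48% of all transcripts were, and 8 were called lower, where 27.8% were, so that 19 were called, where 75.8% of all transcripts were. Rescaling by median ratios gave 10 higher and 10 lower, and equal upper quartiles 9 higher and 10 lower, and with equal upper quartiles 49.2% of all called transcripts were higher, where 63.4% were in the values as deposited. The 14 aquaporins gave 4 higher and 8 lower, and the 8 pump transcripts 7 higher and 0 lower. In extrafloral nectaries against leaf, 13 of the 22 were called higher, where 28.9% of all transcripts were, and 2 lower, where 18.5% were, which makes 15 called, where 47.4% of all transcripts were. There the 14 aquaporins gave 9 higher and 2 lower, and the pump transcripts 4 higher and 0 lower. The median log2 change of the 22 was 0.58 in floral nectaries, where that of all transcripts was 0.38, and 0.66 in extrafloral nectaries, where that of all transcripts was 0.13. The leaf libraries served both comparisons.

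**Figure D1:**
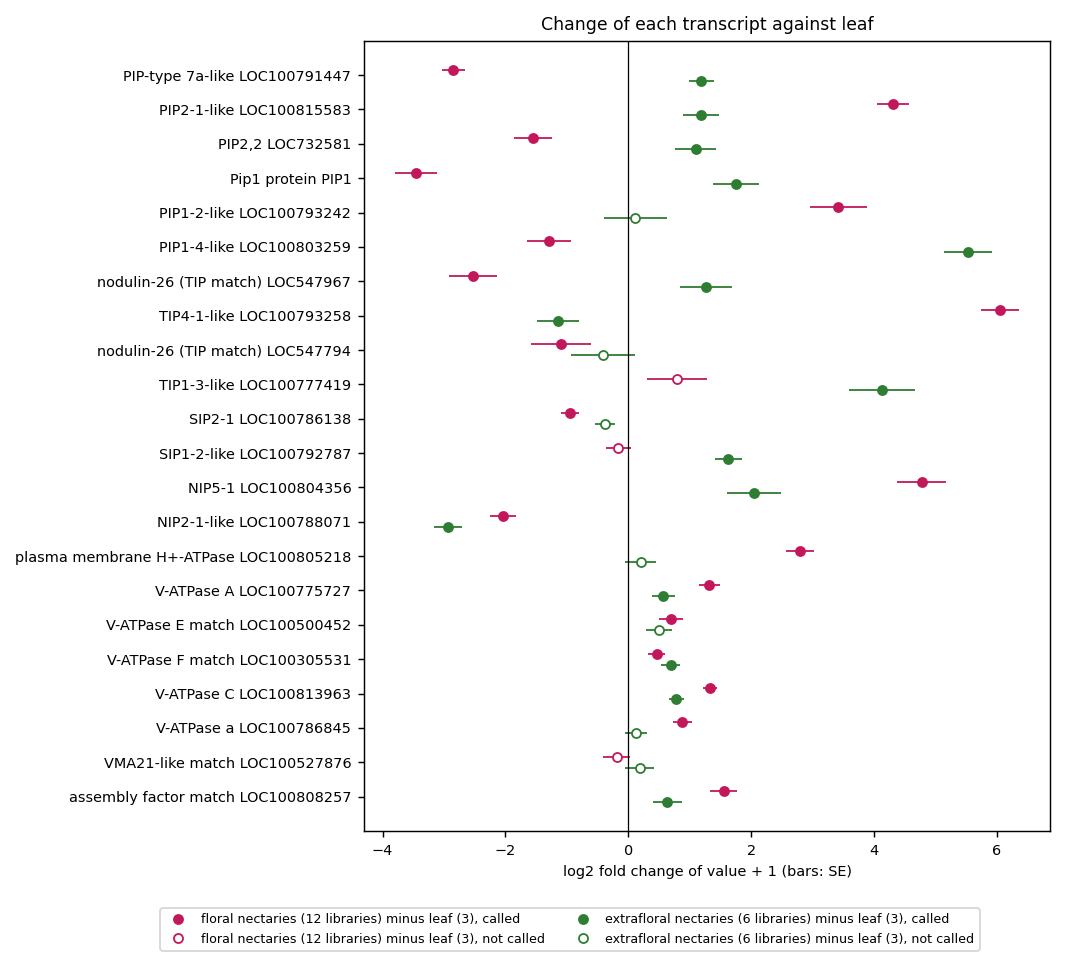
Log2 fold change of value + 1 against leaf (x axis) for each of the 22 transcripts (y axis), with SE bars, for floral nectaries (12 libraries) and extrafloral nectaries (6 libraries). Filled points are called. Of the 14 aquaporins, 4 lie right of 0 and 8 left of it among the called floral points, and 9 and 2 among the called extrafloral points.

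The PIP channels carry water across the plasma membrane. In Arabidopsis and maize, PIP2 proteins are strong water channels, and PIP1 proteins often reach the plasma membrane together with a PIP2 partner. LOC100791447, described as PIP-type 7a-like and matched first to Arabidopsis PIP1;5, had 778, 575 and 700 units at pre1, 394, 386 and 538 at pre2, 1042, 998 and 760 at the secretory stage, and 1294, 1473 and 1424 at post. It had 8210, 15275 and 13913 units in stem EFN, 17903, 15103 and 10024 in leaf EFN, and 5117, 5922 and 6029 in leaf. All floral libraries were below all leaf libraries, and all EFN libraries were above them. The log2 change against leaf was -2.85 (SE 0.19, adjusted p = 4.68e-11) in floral nectaries and 1.19 (SE 0.20, adjusted p = 0.000106) in EFN.

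The transcript PIP1, described as Pip1 protein although its Arabidopsis match is PIP2;1, followed the same order. Its values were 126, 38 and 48 at pre1, 45, 78 and 44 at pre2, 366, 323 and 282 at the secretory stage, and 611, 522 and 607 at post. They were 2367, 6028 and 5857 in stem EFN, 12281, 8697 and 4631 in leaf EFN, and 1270, 2819 and 1464 in leaf. Floral and leaf libraries did not overlap, while stem EFN library 1 lay within the leaf range. The change against leaf was the largest fall of the 22 in floral nectaries, -3.45 (SE 0.34, adjusted p = 2.26e-08), and 1.76 (SE 0.38, adjusted p = 0.000841) in EFN.

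LOC732581, described as PIP2,2 and matched to PIP2;2, had 3094, 1206 and 999 units at pre1, 301, 193 and 406 at pre2, 809, 1070 and 540 at the secretory stage, and 1057, 1093 and 921 at post. It had 2817, 7282 and 4904 units in stem EFN, 5361, 4758 and 4939 in leaf EFN, and 2609, 1547 and 2841 in leaf. Floral libraries overlapped leaf at the top, because pre1 library 1 stood above its group, and stem EFN library 1 lay within the leaf range. The change against leaf was -1.55 (SE 0.31, adjusted p = 0.000155) in floral nectaries and 1.10 (SE 0.34, adjusted p = 0.012) in EFN. The EFN call was lost without leaf library 2 (adjusted p = 0.0877).

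A pair of PIP transcripts went the other way and were high in floral nectaries. LOC100815583, described as PIP2-1-like and matched to PIP2;5, had 9662, 6663 and 6722 units at pre1, 4121, 4353 and 4108 at pre2, 5517, 5105 and 3022 at the secretory stage, and 4725, 4439 and 4025 at post. It had 191, 512 and 637 units in stem EFN, 1082, 884 and 556 in leaf EFN, and 233, 291 and 230 in leaf. Every floral library exceeded every EFN and leaf library, and stem EFN library 1 was below leaf. The change against leaf was 4.31 (SE 0.27, adjusted p = 2.04e-11) in floral nectaries, a 19.8-fold difference, and 1.18 (SE 0.29, adjusted p = 0.00272) in EFN.

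LOC100793242, described as PIP1-2-like, had 6412, 2376 and 2832 units at pre1, 2058, 2203 and 2514 at pre2, 1426, 1765 and 1624 at the secretory stage, and 1846, 1379 and 896 at post. It had 55, 194 and 764 units in stem EFN, 283, 179 and 170 in leaf EFN, and 188, 246 and 143 in leaf. Floral libraries again stood above all others, and the stem EFN libraries were spread on both sides of leaf. It was 3.42 higher in floral nectaries on the log2 scale (SE 0.46, adjusted p = 1.64e-06), and its value for EFN against leaf, 0.12 (SE 0.51, adjusted p = 0.872), was not called. The floral nectary markers summed to 137, 193 and 254 in the same stem EFN libraries, and their part in this spread was not tested.

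LOC100803259, described as PIP1-4-like and matched to PIP1;2, separated the early from the late floral stages. It had 3, 3 and 3 units at pre1, 0, 1 and 1 at pre2, 335, 266 and 303 at the secretory stage, and 697, 322 and 413 at post. It had 1447, 2595 and 5329 units in stem EFN, 7622, 4365 and 2433 in leaf EFN, and 47, 122 and 69 in leaf. The pre1 and pre2 libraries were below leaf, the secretory and post libraries above leaf, and the EFN libraries above all others. In EFN it showed the largest rise of the 22 against leaf, 5.52 (SE 0.39, adjusted p = 3.86e-09), a 46.0-fold difference. The average over the 4 floral stages was -1.29 against leaf (SE 0.36, adjusted p = 0.00312), a mean of stages on both sides of leaf, and with a pseudocount of 10 it was no longer called (adjusted p = 0.354).

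**Figure D2:**
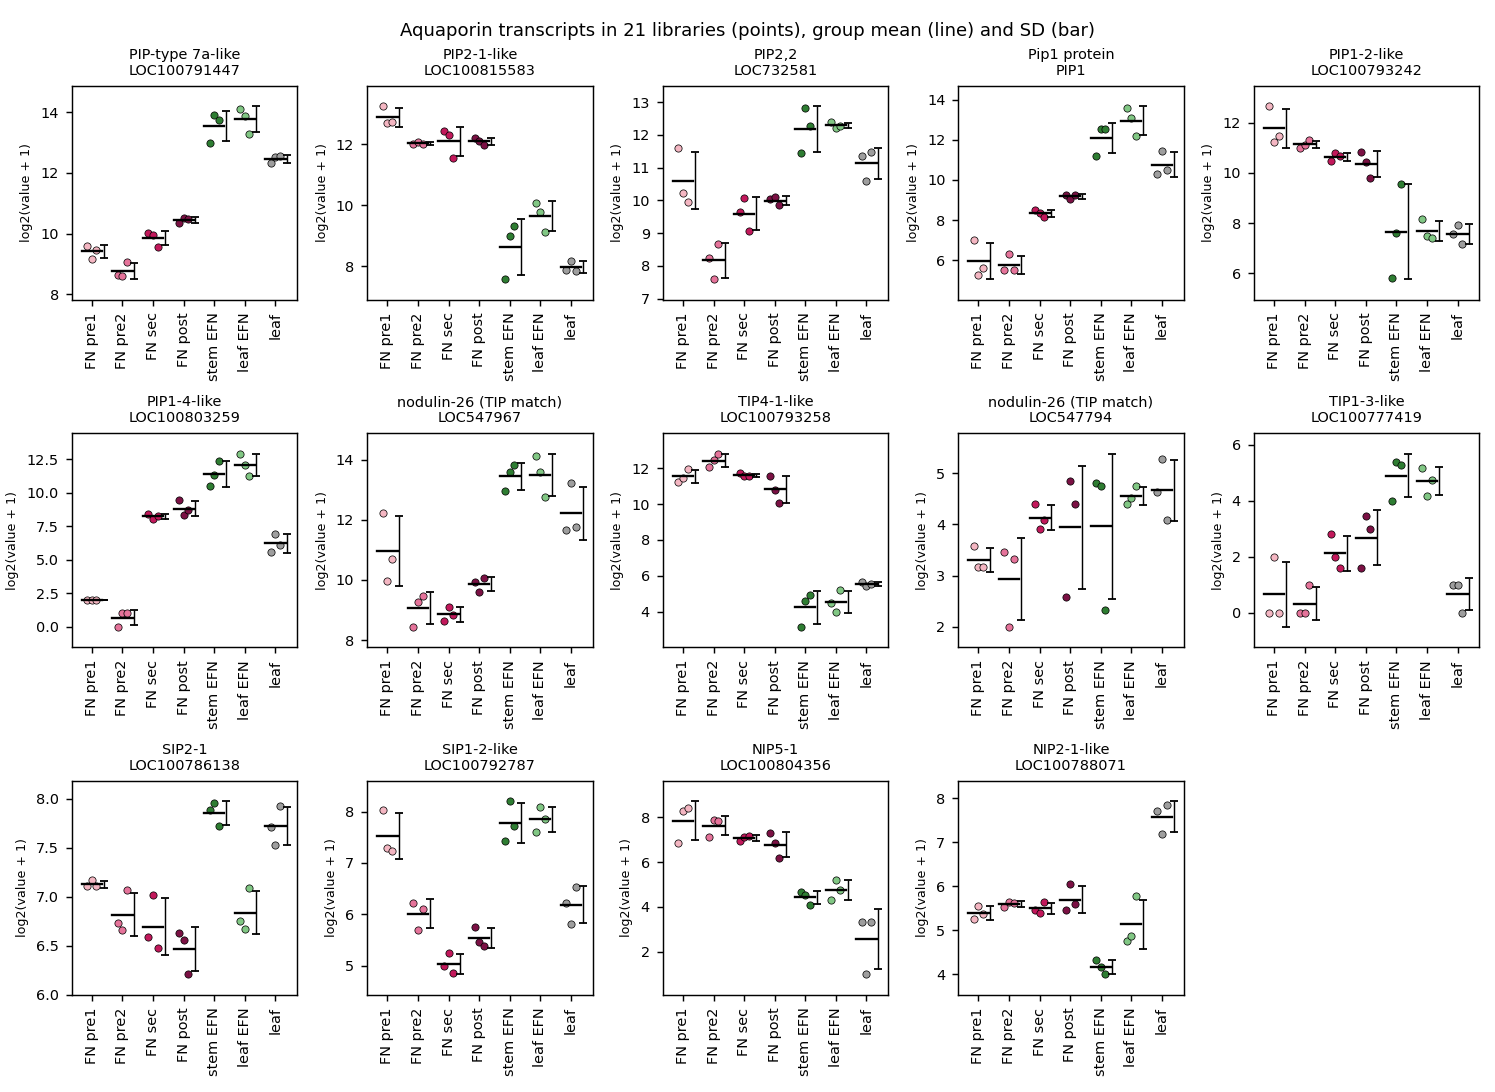
Log2(value + 1) of the 14 aquaporin transcripts in each of 21 libraries (points), with the group mean (line) and SD (bar), for floral nectaries at 4 stages, stem EFN, leaf EFN and leaf. The y axes differ between panels and need not start at 0. LOC100815583, LOC100793242, LOC100793258 and LOC100804356 are high in all 12 floral libraries, and LOC100803259 is near 0 at pre1 and pre2.

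The TIP channels sit in the vacuolar membrane. LOC547967, described as nodulin-26 but matched to the Arabidopsis tonoplast channel TIP1;1, had 4790, 990 and 1666 units at pre1, 348, 619 and 710 at pre2, 392, 551 and 460 at the secretory stage, and 982, 774 and 1073 at post. It had 7952, 12369 and 14436 units in stem EFN, 18079, 12364 and 6969 in leaf EFN, and 3214, 9600 and 3508 in leaf. EFN libraries were above all floral libraries, while pre1 library 1 reached the leaf range and leaf library 2 the EFN range. The change against leaf was -2.53 (SE 0.38, adjusted p = 6.97e-06) in floral nectaries and 1.26 (SE 0.42, adjusted p = 0.0192) in EFN. The EFN call was lost without leaf library 1 (adjusted p = 0.117) and without leaf library 3 (adjusted p = 0.0918).

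LOC100793258, a TIP4-1-like transcript matched to TIP4;1, showed the reverse. It had 2423, 2799 and 3883 units at pre1, 4255, 5525 and 7054 at pre2, 3331, 2992 and 2983 at the secretory stage, and 3047, 1781 and 1073 at post. It had 8, 23 and 30 units in stem EFN, 21, 15 and 36 in leaf EFN, and 49, 43 and 45 in leaf. The 3 tissue types did not overlap, with floral nectaries highest and EFN lowest. It rose by 6.05 in floral nectaries against leaf (SE 0.31, adjusted p = 1.45e-12), 66.3-fold and the largest rise of the 22, and fell by 1.15 in EFN (SE 0.34, adjusted p = 0.0102).

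The other two TIP transcripts were low throughout. LOC100777419, TIP1-3-like, had 0, 3 and 0 units at pre1, 0, 0 and 1 at pre2, 6, 3 and 2 at the secretory stage, 2, 10 and 7 at post, 15, 41 and 38 in stem EFN, 35, 17 and 26 in leaf EFN, and 1, 1 and 0 in leaf. EFN libraries stood above all others. The log2 change of EFN against leaf was 4.13 (SE 0.54, adjusted p = 5.48e-06), and the ratio of estimated reads, 196 against 2, was 39.4 with an exact 95% interval of 10.8 to 328 that covers counting error only. LOC547794, a second nodulin-26 entry matched to TIP1;1, ranged from 3 to 28 units in floral nectaries, 4 to 27 in EFN and 16 to 38 in leaf. It fell by 1.09 in floral nectaries against leaf (SE 0.48, adjusted p = 0.0464), with overlapping libraries, and the call was lost without any one of pre1 library 2 or 3, pre2 library 2, secretory library 2 or 3, post library 1, leaf EFN library 1, 2 or 3, and leaf library 1 or 2.

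**Figure D3:**
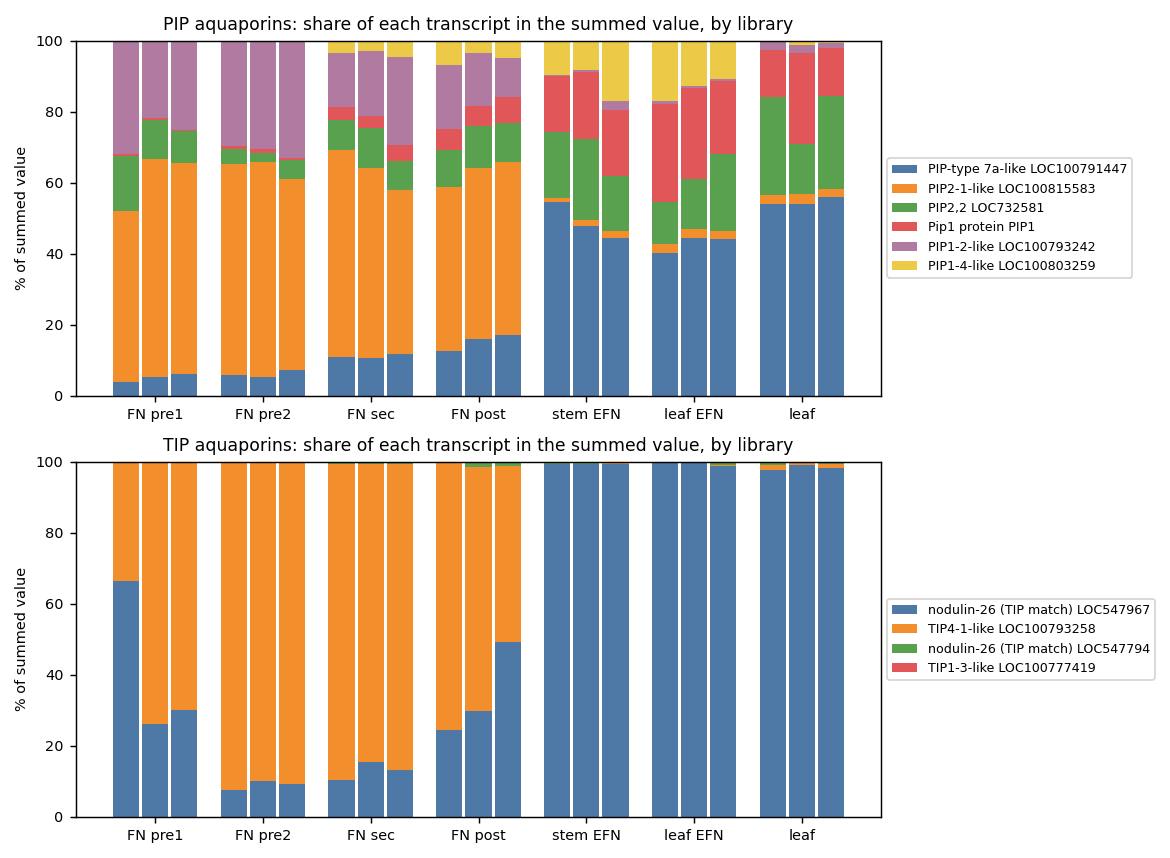
Share of each transcript in the summed value of the 6 PIP transcripts (upper panel) and the 4 TIP transcripts (lower panel), in percent (y axis), for each of the 21 libraries grouped by tissue (x axis). LOC100815583 holds 46.2% to 61.3% of the PIP value in floral libraries and at most 2.66% in EFN and leaf, and LOC547967 holds at least 97.7% of the TIP value in EFN and leaf.

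The make-up of both families was set out as shares of the summed value, which weight long transcripts more and are compared between tissues only. Of the PIP value, LOC100815583 held 56.3%, 58.0%, 52.7% and 47.6% at pre1, pre2, secretory and post, 1.63% in stem EFN, 2.49% in leaf EFN and 2.42% in leaf. LOC100791447 held 5.12%, 6.04%, 11.0% and 15.3% over the same floral stages, 48.9% in stem EFN, 42.9% in leaf EFN and 54.7% in leaf. Of the TIP value, LOC100793258 held between 33.5% and 92.2% in single floral libraries, 0.164% on average in stem EFN, 0.249% in leaf EFN and 1.07% in leaf.

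Together, the 14 aquaporins made up 0.539% ± 0.234 of the summed library value at pre1, 0.328% ± 0.0485 at pre2, 0.338% ± 0.0561 at the secretory stage, 0.337% ± 0.0387 at post, 1.18% ± 0.306 in stem EFN, 1.61% ± 0.447 in leaf EFN and 0.503% ± 0.0868 in leaf (SD, n = 3 each). In this share every EFN library was above every other library, and pre1 library 1, at 0.808%, came nearest to the lowest EFN library, stem EFN library 1, at 0.830%. In the deposited units that order was turned round for this pair, with a sum of 27850 in pre1 library 1 and 23539 in stem EFN library 1. The sum takes no test.

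The NIP channels carry boric acid, glycerol and other small solutes besides water. LOC100804356, NIP5-1, whose Arabidopsis counterpart NIP5;1 takes up boric acid in roots, had 116, 312 and 334 units at pre1, 138, 236 and 225 at pre2, 120, 137 and 144 at the secretory stage, and 158, 113 and 72 at post. It had 24, 22 and 16 units in stem EFN, 19, 36 and 26 in leaf EFN, and 9, 1 and 9 in leaf. The 3 tissue types did not overlap. It was higher than leaf by 4.78 in floral nectaries (SE 0.40, adjusted p = 1.82e-09) and by 2.04 in EFN (SE 0.44, adjusted p = 0.000874).

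LOC100788071, described as NIP2-1-like but matched to NIP6;1, which carries boric acid to young shoot tissue in Arabidopsis, was highest in leaf. It ranged from 37 to 65 units in the 12 floral libraries and had 19, 17 and 15 in stem EFN, 26, 28 and 54 in leaf EFN, and 209, 145 and 228 in leaf. Leaf libraries stood above all nectary libraries. It fell by 2.04 in floral nectaries against leaf (SE 0.21, adjusted p = 3.08e-08) and by 2.93 in EFN (SE 0.23, adjusted p = 1.13e-08), the largest fall of the 22 in EFN.

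The SIP proteins lie in the endoplasmic reticulum in Arabidopsis. LOC100792787, SIP1-2-like and matched to SIP1;1, had 261, 155 and 150 units at pre1, 74, 51 and 68 at pre2, 31, 37 and 28 at the secretory stage, and 53, 43 and 41 at post. It had 172, 292 and 209 units in stem EFN, 193, 270 and 231 in leaf EFN, and 74, 55 and 91 in leaf. EFN libraries were above leaf and reached the level of pre1, and the later floral stages lay at or below leaf. It was 1.63 higher in EFN than in leaf (SE 0.22, adjusted p = 1e-05), and its floral average was -0.16 against leaf (SE 0.20, adjusted p = 0.481), not called, though it was called lower by median ratios (adjusted p = 0.0466) and with equal upper quartiles (adjusted p = 0.0157). LOC100786138, SIP2-1, ranged from 73 to 143 units in floral nectaries and had 235, 247 and 210 in stem EFN, 107, 101 and 135 in leaf EFN, and 209, 184 and 242 in leaf. It fell by 0.95 in floral nectaries against leaf (SE 0.15, adjusted p = 9.5e-06), and for EFN against leaf its value was -0.38 (SE 0.16, adjusted p = 0.0605), with stem EFN at the leaf level and leaf EFN below it. This fall was called under both other scalings (adjusted p = 0.0167 and 0.0238).

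The plasma membrane H+-ATPase exports protons from the cell and is inhibited by its own C-terminal domain until a 14-3-3 protein binds there. LOC100805218, described as plasma membrane ATPase 1-like, had 23079, 35781 and 42581 units at pre1, 42512, 42353 and 43820 at pre2, 25310, 28543 and 31705 at the secretory stage, and 31994, 21916 and 13641 at post. It had 3356, 4850 and 4672 units in stem EFN, 6321, 5849 and 5728 in leaf EFN, and 5138, 5018 and 3241 in leaf. The lowest floral library, post library 3, was above the highest library outside the flower. Its share of the summed library value was 1.01% ± 0.0214 at pre2 and 0.138% ± 0.0314 in leaf (SD, n = 3 each). The log2 change in floral nectaries against leaf was 2.79 (SE 0.23, adjusted p = 1.93e-09), while for EFN against leaf it was 0.20 (SE 0.26, adjusted p = 0.544), not called, with overlapping libraries. The row has 7 Arabidopsis matches, the first being AHA4, so which pump gene of the family gave these reads is uncertain.

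**Figure D4:**
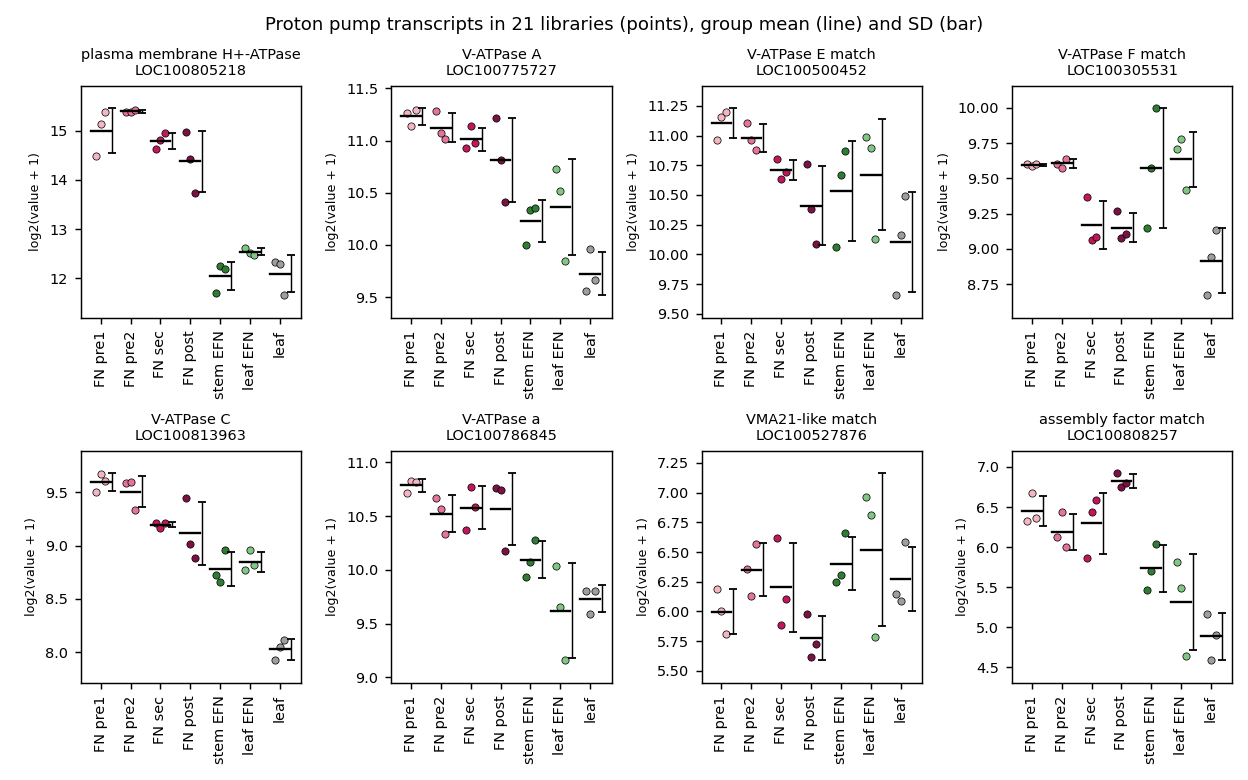
Log2(value + 1) of the 8 proton pump transcripts in each of 21 libraries (points), with the group mean (line) and SD (bar), for floral nectaries at 4 stages, stem EFN, leaf EFN and leaf. The y axes differ between panels and need not start at 0. The plasma membrane pump LOC100805218 is apart from all other tissues in all 12 floral libraries, and the V-ATPase transcripts differ less.

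The V-ATPase has a peripheral V1 sector that splits ATP and a VO sector in the membrane that moves the protons. LOC100775727, the catalytic subunit A, had 2451, 2262 and 2509 units at pre1, 2486, 2159 and 2066 at pre2, 1945, 2248 and 2015 at the secretory stage, and 2377, 1800 and 1359 at post. It had 1022, 1294 and 1305 units in stem EFN, 1699, 1464 and 922 in leaf EFN, and 753, 993 and 810 in leaf. Floral libraries were all above leaf, and leaf EFN library 3 was within the leaf range. The change against leaf was 1.32 (SE 0.17, adjusted p = 7.04e-07) in floral nectaries and 0.57 (SE 0.18, adjusted p = 0.0156) in EFN. The EFN call was lost without leaf library 1 (adjusted p = 0.0791) and without leaf library 3 (adjusted p = 0.0507).

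LOC100813963, subunit C, which joins the stalk to the membrane sector, averaged 772 ± 44.1 units at pre1, 728 ± 72.2 at pre2, 585 ± 9.87 at the secretory stage, 561 ± 119 at post, 441 ± 49.5 in stem EFN, 460 ± 31.4 in leaf EFN and 261 ± 17.2 in leaf (SD, n = 3 each). Neither the floral nor the EFN libraries overlapped leaf. It was higher than leaf by 1.32 in floral nectaries (SE 0.11, adjusted p = 2.75e-09) and by 0.78 in EFN (SE 0.12, adjusted p = 4.98e-05).

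LOC100500452, matched to the stalk subunit E1, had 1991, 2281 and 2344 units at pre1, 2203, 1993 and 1878 at pre2, 1783, 1587 and 1654 at the secretory stage, 1730, 1337 and 1090 at post, 1066, 1622 and 1867 in stem EFN, 2027, 1898 and 1121 in leaf EFN, and 807, 1148 and 1435 in leaf. The groups overlapped. It was 0.70 higher in floral nectaries than in leaf (SE 0.19, adjusted p = 0.00325), and the value for EFN against leaf, 0.50 (SE 0.21, adjusted p = 0.0624), was not called. LOC100305531, matched to the central stalk subunit F, ranged from 533 to 797 units in floral nectaries, 567 to 1021 in EFN and 407 to 560 in leaf. It was higher than leaf by 0.47 in floral nectaries (SE 0.14, adjusted p = 0.00546) and by 0.69 in EFN (SE 0.15, adjusted p = 0.00118). Both floral calls were lost when libraries were rescaled to equal upper quartiles (adjusted p = 0.141 for LOC100500452 and 0.684 for LOC100305531) and without leaf library 1 (adjusted p = 0.0554 and 0.0615 in the same order).

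LOC100786845, the subunit a of the VO sector, is described as a1-like, although the first of its 2 Arabidopsis matches is the tonoplast form VHA-a3. Which form and membrane it stands for is therefore uncertain. It had 1677, 1813 and 1806 units at pre1, 1631, 1511 and 1288 at pre2, 1326, 1748 and 1536 at the secretory stage, and 1739, 1718 and 1158 at post. It had 977, 1078 and 1241 units in stem EFN, 1052, 806 and 570 in leaf EFN, and 894, 770 and 892 in leaf. All floral libraries were above leaf. The change was 0.88 in floral nectaries (SE 0.16, adjusted p = 5.01e-05), and in EFN it was 0.12 (SE 0.17, adjusted p = 0.578), not called.

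The assembly factors help build the membrane sector in the endoplasmic reticulum, a role worked out in yeast. LOC100808257, described as uncharacterized and matched to a V-ATPase assembly factor, had 79, 101 and 81 units at pre1, 69, 86 and 63 at pre2, 57, 86 and 95 at the secretory stage, 120, 107 and 110 at post, 43, 51 and 65 in stem EFN, 55, 44 and 24 in leaf EFN, and 35, 23 and 29 in leaf. Floral libraries were all above leaf. The change was 1.55 in floral nectaries (SE 0.22, adjusted p = 2.87e-06) and 0.64 in EFN (SE 0.24, adjusted p = 0.0362), and the EFN call was lost under both other scalings (adjusted p = 0.0712 and 0.0581). It was also lost without any one of stem EFN library 3, leaf EFN library 1 or 2 and leaf library 2 or 3 (adjusted p of 0.069 to 0.162). LOC100527876, matched to a VMA21-like protein, ranged from 48 to 97 units in floral nectaries, 54 to 124 in EFN and 67 to 95 in leaf, and was called in neither comparison in the deposited scaling.

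The V-ATPase subunits outside the 22, which the table holds under other Arabidopsis descriptions, gave 8 of 8 higher in floral nectaries against leaf and 5 of 8 higher in EFN, with 0 lower in both, where 48% of all transcripts were higher in floral nectaries and 28.9% in EFN. Their median log2 change was 0.94 in floral nectaries, where that of all transcripts was 0.38, and 0.63 in EFN, where that of all transcripts was 0.13. Calls under the other scalings and without single libraries were not examined for these 8, nor for the other lists outside the 22. LOC100527177, matched to a proteolipid-like subunit c'' of the VO ring, averaged 842 ± 36 at pre1, 885 ± 81.2 at pre2, 836 ± 86.4 at the secretory stage, 863 ± 51.2 at post, 671 ± 46.1 in stem EFN, 809 ± 137 in leaf EFN and 440 ± 46.1 in leaf (SD, n = 3 each). It rose by 0.96 in floral nectaries (SE 0.11, adjusted p = 2.08e-07) and by 0.74 in EFN (SE 0.12, adjusted p = 7.62e-05).

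Regulators of the plasma membrane pump gave 7 of 11 higher and 1 lower in floral nectaries against leaf, and 5 higher and 0 lower in EFN. Of all transcripts, 48% were higher and 27.8% lower in floral nectaries, and 28.9% higher and 18.5% lower in EFN, so the regulators' floral count lay near the share of all transcripts. LOC100791448 matches PP2C-D3, of a phosphatase group that lowers pump activity in Arabidopsis. It averaged 7988 ± 2951 units at pre1, 13688 ± 831 at pre2, 6317 ± 801 at the secretory stage, 3136 ± 1121 at post, 274 ± 119 in stem EFN, 274 ± 86.9 in leaf EFN and 110 ± 32.7 in leaf (SD, n = 3 each), and rose by 5.96 in floral nectaries (SE 0.27, adjusted p = 1.92e-13). SGF14h, a 14-3-3 protein, rose by 3.73 (SE 0.20, adjusted p = 2.11e-12). GF14C, another 14-3-3 protein, was the member called lower, at -0.87 (SE 0.17, adjusted p = 0.000171).

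Another kind of proton pump, the membrane pyrophosphatase, uses pyrophosphate in place of ATP. Both pyrophosphatase transcripts were called higher in floral nectaries than in leaf, where 48% of all transcripts were. Neither was called in EFN against leaf, where 47.4% of all transcripts were. LOC100812548 is described as a vacuolar membrane proton pump 1-like, although the first of its 2 Arabidopsis matches is a form found in the Golgi. Which form and membrane this transcript stands for is therefore uncertain. It had 12443, 13275 and 14534 units at pre1, 9791, 9516 and 10465 at pre2, 3241, 3244 and 3543 at the secretory stage, and 5247, 2527 and 1526 at post. It had 1760, 2021 and 1818 units in stem EFN, 1784, 1396 and 1238 in leaf EFN, and 2545, 3463 and 1605 in leaf. Pre1 and pre2 libraries stood above all others, while secretory and post libraries overlapped leaf. It rose by 1.29 in floral nectaries (SE 0.25, adjusted p = 0.000116). LOC102664363, listed as non-coding, rose by 0.99 (SE 0.13, adjusted p = 6.6e-07).

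Proton-coupled carriers of the vacuole gave 1 of 4 higher and 1 lower in floral nectaries against leaf, and 1 higher and 3 lower in EFN, where 48% and 27.8% of all transcripts were higher and lower in floral nectaries, and 28.9% and 18.5% in EFN. LOC100816231, a vacuolar cation/proton exchanger matched to CAX3, averaged 2219 ± 541 units at pre1, 842 ± 236 at pre2, 424 ± 78.1 at the secretory stage, 337 ± 74.3 at post, 7473 ± 903 in stem EFN, 3529 ± 1369 in leaf EFN and 8327 ± 2089 in leaf (SD, n = 3 each). It fell by 3.53 in floral nectaries against leaf (SE 0.22, adjusted p = 2.91e-11). LOC100775769, matched to CAX2, rose by 0.54 (SE 0.11, adjusted p = 0.00029).

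Over the 4 floral stages, the F test called 12 of the 22, where 57% of all transcripts were called, so the count lay near the share of all transcripts. These were 9 of the 14 aquaporins and 3 of the 8 pump transcripts, namely LOC100805218 (adjusted p = 0.0402), LOC100305531 (adjusted p = 0.0367) and LOC100813963 (adjusted p = 0.0179). Without post library 3, the F test called 7, all of them aquaporins. None of the 3 pump calls held there (adjusted p = 0.154 for LOC100805218, 0.0711 for LOC100305531 and 0.0521 for LOC100813963), and 0 pump transcripts were called without pre1 library 2, without post library 2 or with rescaling by median ratios. A single pump transcript, LOC100813963, was called without any one of the pre2 libraries or without secretory library 2. Post library 3 held the lowest value of its group for 5 of the 8 pump transcripts, and post library 1 the highest for 8 of 8.

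From pre1 to pre2, 4 of the 22 were called lower, where 7.05% of all transcripts were, and 0 higher, where 12.4% were, against 19.5% called in either direction. At an unadjusted p under 0.05, 6 were lower and 1 higher. The authors' own calls mark 5 of the 22 for this step, where they mark 18.9% of all transcripts. These are LOC732581, LOC100792787, LOC100791447, LOC100815583 and LOC100793258. The last 3 were not called here. In a fit of both groups alone, LOC100791447 (adjusted p = 0.0284) and LOC100815583 (adjusted p = 0.0128) were lower and LOC100793258 (adjusted p = 0.0273) was higher. LOC732581 showed the largest fall, with 301, 193 and 406 units at pre2 against 3094, 1206 and 999 at pre1, a change of -2.43 (SE 0.39, adjusted p = 0.000316). LOC547967 fell by 1.89 (SE 0.49, adjusted p = 0.0101) and LOC100792787 by 1.51 (SE 0.26, adjusted p = 0.000544). All 3 had their highest pre1 value in library 1, and without it the count of falls was 2 and LOC547967 was no longer called (adjusted p = 0.0858). Without pre2 library 1 the count was also 2, and LOC547967 was again not called (adjusted p = 0.0536). The call of LOC100803259 at -1.33 (SE 0.45, adjusted p = 0.0448) rests on an estimated 2 reads at pre2 against 8 at pre1, a ratio of 0.227 with an exact 95% interval of 0.0234 to 1.14 for counting error only, and it was lost under 16 of the alternative settings, among them leaving out any library of pre1, pre2 or the secretory stage, post library 3, stem EFN library 2 or leaf EFN library 2.

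From pre2 to the secretory stage, 5 of the 22 were called higher, where 12.6% of all transcripts were, and 1 lower, where 8.77% were, against 21.4% called in either direction. All 5 were aquaporins, and 4 of them were PIP transcripts that were also called higher in EFN than in leaf. LOC100803259 had 335, 266 and 303 units at the secretory stage against 0, 1 and 1 at pre2, so the libraries were far apart. Its log2 change was 7.57 (SE 0.45, adjusted p = 2.48e-09), and the ratio of estimated reads, 932 against 2, was 450 with an exact 95% interval of 124 to 3724. PIP1 rose by 2.56 (SE 0.43, adjusted p = 0.000337), LOC732581 by 1.43 (SE 0.39, adjusted p = 0.013) and LOC100791447 by 1.09 (SE 0.24, adjusted p = 0.00271). For each of the 3, all secretory libraries were above all pre2 libraries. LOC732581 was not called without pre2 library 2 (adjusted p = 0.075) or without secretory library 2 (adjusted p = 0.0752), and without either library the count of rises was 3.

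The remaining rise, LOC100777419 at 1.80 (SE 0.62, adjusted p = 0.0439), rests on an estimated 12 reads against 1, with an interval of 1.72 to 496 for the ratio, and was lost under 10 of the alternative settings, among them leaving out library 1 or 2 of pre2, of the secretory stage or of leaf EFN. LOC100792787 fell by 0.98 (SE 0.26, adjusted p = 0.0107), with 31, 37 and 28 units at the secretory stage against 74, 51 and 68 at pre2. Without pre2 library 1 it was not called (adjusted p = 0.0523), which left 0 falls. In a fit of the secretory and pre2 libraries alone, 8 of the 22 were called lower, 4 of them pump transcripts (LOC100805218, LOC100813963, LOC100500452 and LOC100305531). The share of all transcripts called in that fit was not computed, so this count has no background to be set against. The change of LOC100805218 in it was -0.59 (adjusted p = 0.00748), with all secretory libraries below all pre2 libraries. In the fit of all groups LOC100805218 was not called for this step. In the fit of all groups without stem EFN library 1 or 3, the count of falls was 2.

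**Figure D5:**
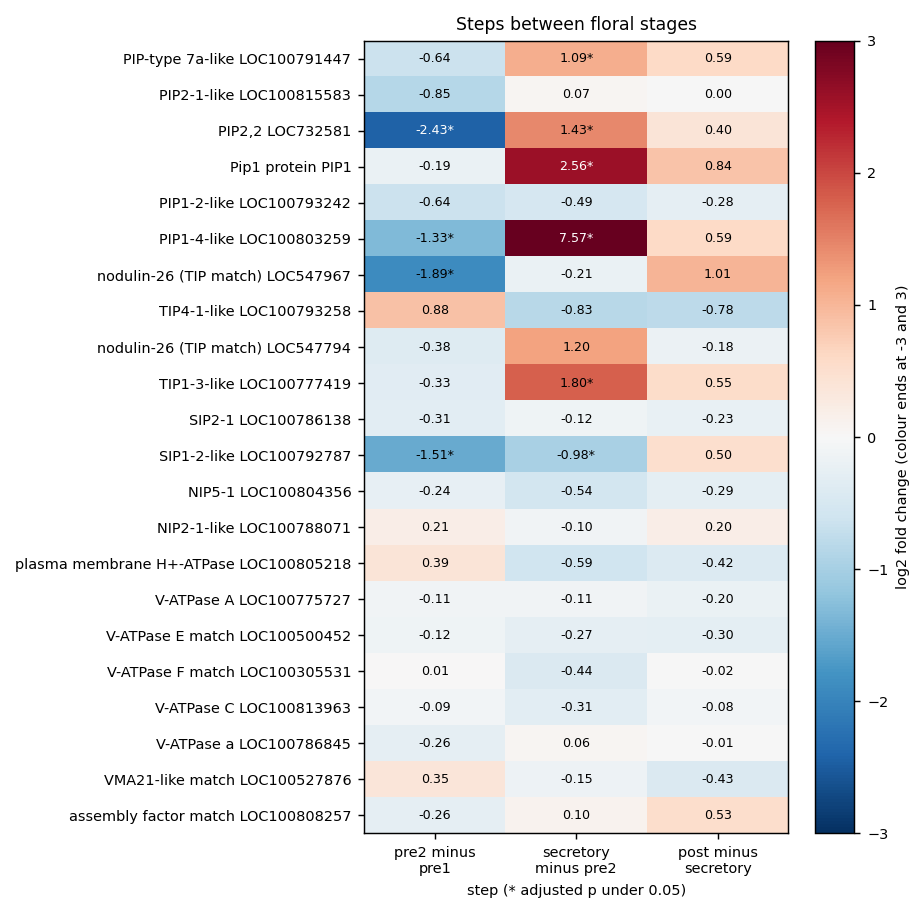
Log2 fold change of value + 1 of the 22 transcripts (y axis) for each step between successive floral stages (x axis), with later minus earlier stage as number and colour; an asterisk marks a call. The first step holds 4 calls, all lower, the second 5 higher and 1 lower, and the third none.

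From the secretory stage to post, 0 of the 22 were called, where 2.63% of all transcripts were higher and 3.1% lower, 5.73% in all. At an unadjusted p under 0.05, 1 transcript was higher, LOC100791447, at 0.59 (SE 0.24, adjusted p = 0.167). The authors' deposited table marks 3 of the 22 as changed for this step, LOC100791447, PIP1 and LOC547967, where it marks 9.86% of all transcripts. In a fit of both groups alone, the same 3 were called higher, LOC100791447 (adjusted p = 0.042), PIP1 (adjusted p = 0.00895) and LOC547967 (adjusted p = 0.00991). For each, all post libraries were above all secretory libraries. The share of all transcripts called in that fit was not computed. For the pre2 to secretory step, the authors' deposited table marks 8 of the 22, where it marks 29.9% of all transcripts. Among the 8 are LOC100805218, LOC100793258, LOC100793242 and LOC100804356, which were not called for that step in the fit of all groups.

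The secretory stage was also set against pre1, which is labelled as 24 h before anthesis, with no clock hour stated. Of the 22, 2 were called higher, where 25.2% of all transcripts were, and 4 lower, where 20.7% were, against 45.9% called in either direction. LOC100803259 had 335, 266 and 303 units at the secretory stage against 3, 3 and 3 at pre1, a change of 6.23 (SE 0.45, adjusted p = 4.64e-09). PIP1 rose by 2.37 (SE 0.43, adjusted p = 0.000208). LOC100792787 showed the largest fall, 31, 37 and 28 units at the secretory stage against 261, 155 and 150 at pre1, at -2.48 (SE 0.26, adjusted p = 3.47e-07).

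The other falls over these 24 h were smaller. LOC547967 fell by 2.10 (SE 0.49, adjusted p = 0.00164). For the subunit C transcript LOC100813963 the fall was 0.40 (SE 0.14, adjusted p = 0.0305), and it was not called without pre1 library 2 or 3 or any secretory library. The fall of LOC732581 was 1.00 (SE 0.39, adjusted p = 0.0428). It was not called without pre1 library 1 (adjusted p = 0.294), secretory library 3 (adjusted p = 0.182), pre2 library 1, secretory library 1, post library 2 or leaf EFN library 2. Leaving out secretory library 3 gave 2 falls in all, while leaving out stem EFN library 1 or 3, or rescaling to equal upper quartiles, gave 7. LOC100805218 did not pass, at -0.21 (SE 0.30, adjusted p = 0.596). Outside the 22, 3 of 8 V-ATPase subunits were called lower and 0 higher, where 20.7% of all transcripts were lower and 25.2% higher. The pyrophosphatase LOC100812548 fell by 2.00 (SE 0.31, adjusted p = 4.43e-05).

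Secretory floral nectaries were then compared with extrafloral nectaries directly, which sets 2 kinds of nectary side by side. Of the 22, 10 were called higher, where 43.4% of all transcripts were, and 9 lower, where 29.1% were, against 72.5% called in either direction. With equal upper quartiles the split was 7 higher and 10 lower. LOC100793258 had the largest rise, 3331, 2992 and 2983 units in secretory floral nectaries against 8 to 36 in the 6 EFN libraries, at 7.20 (SE 0.34, adjusted p = 1.07e-12). LOC547967 had the largest fall, 392, 551 and 460 units in secretory floral nectaries against 6969 to 18079 in EFN, at -4.62 (SE 0.42, adjusted p = 1.01e-08). For both, the libraries did not overlap.

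Among the PIP transcripts, LOC100815583 and LOC100793242 were higher in secretory floral nectaries by 2.95 (SE 0.29, adjusted p = 3.01e-08) and by 2.97 (SE 0.51, adjusted p = 3.41e-05) in that order. The other 4 were lower, with log2 changes between -4.19 and -2.64. LOC100804356 was higher by 2.48 (SE 0.44, adjusted p = 4.92e-05), and LOC100792787 and LOC100786138 were lower. Of the pump transcripts, LOC100805218 was higher by 2.50 (SE 0.26, adjusted p = 5.38e-08), and LOC100305531 alone was lower, at -0.43 (SE 0.15, adjusted p = 0.0163), a call lost without secretory library 2 or 3. With equal upper quartiles LOC100527876 was lower as well (adjusted p = 0.0274). The subunit C transcript LOC100813963 was higher by 0.38 (SE 0.12, adjusted p = 0.0101), and it was not called under either other scaling (adjusted p = 0.117 and 0.698).

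Stem and leaf EFN differed in few of these transcripts. Of the 22, 1 was called higher in stem EFN, where 2.8% of all transcripts were, and 1 lower, where 2.57% were, 5.37% in all. LOC100786138 had 235, 247 and 210 units in stem EFN against 107, 101 and 135 in leaf EFN, with no overlap, at 1.01 (SE 0.19, adjusted p = 0.0032). In a fit of the EFN libraries alone its adjusted p was 0.0597. The authors' deposited table marks the same transcript, and no other of the 22, for this pair, where it marks 2.06% of all transcripts. LOC100788071 had 19, 17 and 15 units in stem EFN against 26, 28 and 54 in leaf EFN, at -0.97 (SE 0.26, adjusted p = 0.0369), and the call was lost without leaf EFN library 3 (adjusted p = 0.131), leaf EFN library 2, any stem EFN library, pre2 library 2 or 3, or secretory library 1. Library 1 of stem EFN held the lowest value of its group for 10 of the 14 aquaporins and 7 of the 8 pump transcripts, and library 3 of leaf EFN for 7 of the 8 pump transcripts.

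All floral stages were last compared with both EFN sites, which tests whether the changes of the 2 nectary types against leaf differ. Of the 22, 10 were called higher in floral nectaries, where 46.8% of all transcripts were, and 9 lower, where 32.4% were, against 79.2% called in either direction. Those called in opposite directions against leaf in the 2 nectary types were 6 of the 22, where 7.23% of all transcripts were. With equal upper quartiles 10 were higher and 11 lower, and 47.6% of all called transcripts were higher, where 59.1% were in the values as deposited. LOC100793258 had the largest rise, at 7.20 (SE 0.24, adjusted p = 1.99e-15), and LOC100803259 the largest fall, at -6.81 (SE 0.28, adjusted p = 3.08e-14). The plasma membrane pump LOC100805218 was higher by 2.59 (SE 0.18, adjusted p = 1.13e-10) and LOC100815583 by 3.13 (SE 0.21, adjusted p = 4.22e-11). LOC100777419 was lower, at -3.34 (SE 0.38, adjusted p = 1.21e-07), and so was LOC100792787, at -1.79 (SE 0.16, adjusted p = 3.21e-09). The VMA21-like transcript LOC100527876, at -0.38 (SE 0.17, adjusted p = 0.0472), lost its call under 14 of the alternative settings, among them leaving out pre1 library 2 or 3, pre2 library 1 or 2, secretory or post library 2 or 3, stem EFN library 2 or 3, leaf EFN library 1 or 2, or leaf library 1.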

How the data were processed

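RNA from 7 tissues was sequenced as 50 bp paired-end reads, per the labels' protocols. The deposited values are a score: read counts on soybean transcripts, normalized to the upper quartile and rounded by the authors, per the file headers. The submitters' processing notes name DESeq without version or role, and no source used here gives the aligner. The value of 1 read was estimated from the spacing of low values. Because the values are not raw counts, limma 3.58.1 (R 4.3.3) was run on log2(value + 1) with an intensity trend, over all 21 libraries and the 6351 transcripts with a mean of at least 1, leaving 14 residual degrees of freedom. Adjusted p-values are Benjamini-Hochberg over all transcripts tested, two-sided, called under 0.05. Floral stages, and both EFN sites, were weighted equally. The fit was checked on simulated data. The transcripts, lists and comparisons were chosen with earlier results of these data known. Every one of the 22 is named, and genes outside them only as those with the smallest adjusted p of a list. Secretory against pre1, floral against extrafloral nectaries, and the fit without stem EFN libraries 2 and 3 were added after seeing the data. Lists of xylem, pollen and guard cell markers matched 0 transcripts.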

Additional observations from a re-analysis of the deposited data

Results flagged for a closer look

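For 6 of the 14 aquaporins, the average changes of floral and extrafloral nectaries against leaf were called in opposite directions, as they were for 7.23% of all transcripts. The 6 were picked for these opposite signs against the same leaf libraries, so the difference between both changes is given as a description. Of all transcripts, 79.2% were called between floral and extrafloral nectaries. LOC100793258 differed by 7.20 on the log2 scale, being higher than leaf in floral nectaries and lower in extrafloral nectaries. The other 5 were lower than leaf in the floral average and higher in extrafloral nectaries. For LOC100803259, which differed by -6.81, the floral average mixes stages: its pre1 and pre2 libraries lay below leaf and its secretory and post libraries above leaf, and with a pseudocount of 10 the floral change was not called (adjusted p = 0.354). PIP1 differed by -5.21 and LOC100791447 by -4.04. LOC547967 differed by -3.79 and LOC732581 by -2.65. For LOC732581, pre1 library 1 overlapped the extrafloral range. The leaf photosynthesis markers also differ between these tissues, and their part in the differences was not tested.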

How the results depend on the processing

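Across the alternatives, no called value changed sign. Of 90 called pairs of transcript and comparison, without the F test among stages, 68 stayed called under every alternative that tested them. LOC100777419 was left untested by the filter on a mean of at least 10. Of the 12 calls among stages, 6 stayed called under every alternative that tested them. In a fit of the compared libraries alone, the counts were 1 higher for pre2 against pre1, 8 lower for secretory against pre2, 3 higher for post against secretory, 0 higher and 0 lower for stem against leaf EFN, and 7 lower for secretory against pre1. Shares of all transcripts called were not computed for these fits. They were also not computed without stem EFN libraries 2 and 3 or with single libraries left out, so the counts there have no background. With a pseudocount of 10, 0 were lower for stem against leaf EFN, where 153 of all transcripts were. With equal upper quartiles, 7 were lower for secretory against pre1, where 1586 of all transcripts were, against 1315 in the deposited scaling. Without stem EFN libraries 2 and 3, 2 were lower for secretory against pre2, 2 lower for stem against leaf EFN and 7 lower for secretory against pre1, and 9 were higher for EFN against leaf.

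With single libraries left out, stages gave 7 to 14 calls, pre2 against pre1 2 to 6 falls, secretory against pre2 3 to 5 rises and 0 to 2 falls, stem against leaf EFN 0 to 1 falls, and secretory against pre1 2 to 7 falls. EFN against leaf gave 11 to 14 rises and floral nectaries against leaf 9 to 11. The cause of these changes was not tested. Rescaling by median ratios or to equal upper quartiles moved the median change of all transcripts in floral nectaries against leaf from 0.38 to 0.105 or -0.021, and in EFN against leaf from 0.128 to 0.0038 or 0.029. The share of higher among all calls was 53.8% or 49.2% against 63.4% in the deposited scaling for floral nectaries, 50.8% or 53% against 61.1% for EFN, and 54.3% or 47.9% against 59.8% for secretory nectaries against EFN; with equal upper quartiles it was 50.5% against 63.8% for pre2 against pre1.

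Replicate numbers showed no clear pairing of the samples. The check used deviations from the group mean of each transcript. In these deviations, 5 of 63 same-numbered pairs of libraries correlated above 0.1, and 3 of 21 libraries correlated best with their own number. With a replicate block, 13 rose and 2 fell for EFN against leaf, 11 rose and 7 fell for floral nectaries against leaf, 10 were called among stages, and 4 rose and 1 fell for secretory against pre2. Of all transcripts, 1790 rose and 1140 fell with the block for EFN against leaf. The same counts were 3042 and 1740 for floral nectaries against leaf, and 752 and 529 for secretory against pre2. Values of a few units, as for LOC100777419, rest on few reads, so differences there were not detectable at this depth unless large.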
